A study of Rattus norvegicus with 232 samples.

Results

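The FXLE/LEXF family is a set of recombinant inbred rat strains bred from the inbred progenitors F344/Stm and LE/Stm. Every strain whose label begins with FXLE or LEXF and that had 2 or more animals in the deposited table of RefSeq genes was taken, which gave 16 strains with 40 animals, out of 74 strains with 197 animals in all. The strains were FXLE12, FXLE14, FXLE15, FXLE17, FXLE18, FXLE20, LEXF1A, LEXF1C, LEXF2C, LEXF5, LEXF6B, LEXF7B, LEXF8A, LEXF10A, LEXF10B and LEXF11, each with the suffix /Stm. There were 8 strains with 3 animals and 8 with 2, and FXLE13, LEXF2B and LEXF9 had 1 animal each and were left out. The study measured RNA in whole brain of rats of the Hybrid Rat Diversity Panel, a collection of inbred strains, by sequencing of stranded libraries of total RNA depleted of ribosomal RNA. All rats were untreated and, per the study design, naive males that had seen no alcohol, drug or behavioral test, and no allele was engineered in any strain. The labels give no sex and no age for these 40 animals, and the Y-linked gene Eif2s3y was present in each, at 9.96 to 11.15 on the log2 scale. The tissue was frozen in RNAlater.

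A recombinant inbred strain is made by crossing a pair of inbred strains and then mating siblings over many generations. Each strain of such a family carries at nearly every locus the allele of the one progenitor or of the other, on both chromosome copies, and animals of a strain are near-identical in genotype. The strains of a family are therefore used to ask how much of a trait is inherited, since differences between strains beyond those between animals of a strain are attributed to genotype or to what the animals of a strain share in housing and handling.

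The table held 20859 genes after 73 spike-in features were left out, as values scaled by the authors. That their scale is log2 was read from the values, since the study's methods name a log transformation for an earlier version only, and differences in log2 units rest on it. The table holds no counts, so that the depth of the libraries is unknown and the number of animals limits the precision. The median value of a library lay between 8.26 and 8.39. The brain label fitted the markers of brain cells. Snap25 of neurons stood at 15.17 to 15.59, Mbp of myelin at 16.67 to 17.53 and Gfap of astrocytes at 13.81 to 14.77. The mean of 12 liver markers lay between 8.31 and 8.59, about the median of a library. Its member Alb stood higher, at 11.31 to 11.58, so that these values do not show liver RNA to be absent. Correlations between libraries over all genes were 0.995 to 0.999 within a strain and 0.992 to 0.999 between strains. The progenitor F344/Stm had 3 animals, and LE/Stm had 1, in which Apob stood at 19.80 against at most 8.85 in the 40 family animals. Both progenitors came from a sequencing batch that held no family animal. Differences in level between progenitors and family strains therefore cannot be told apart from differences between batches.

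A pair of animals stood apart from the others of their strain, and 2 sets of strains were sequenced separately. Over the genes that differed between strains, defined below, the LEXF2C animal labelled replicate 3 correlated at 0.361 with the mean of the other LEXF2C animals, and the FXLE12 animal labelled replicate 3 at 0.508 with the other FXLE12 animals. The same correlation ran from 0.508 to 0.886 over the 39 animals other than that of LEXF2C, with a median of 0.755. Among 264 such genes with strain means more than 1 log2 unit apart, the LEXF2C animal lay more than 1 unit from its strain mates at 38, against 0 to 13 genes for the other animals. Counts and extremes are also given without these animals where leaving one out changed them most. The 13 animals of FXLE12, FXLE15, FXLE20, LEXF1C and LEXF10A were labelled as sequencing batches 15 and 16, and the 27 animals of the other 11 strains as batches 18 to 20. Differences between the sets of strains and between the sets of batches cannot be told apart, so that calls within each set are also given for the main lists and for part of the genes. Both animals of FXLE15 came from batch 15, both of FXLE18 and of LEXF11 from batch 20, and both of LEXF1A from batch 19. The SDs of these strains hold no difference between batches, and their means rest on 1 batch each. The FXLE12 animal that stood apart came from batch 16 and its strain mates from batch 15. Fits without that animal therefore also lack the batch difference within FXLE12. Of the 36 called genes named by rule, 20 were called within both sets, 7 in batches 18 to 20 only, 3 in batches 15 and 16 only and 6 in neither, which were Adra2c, Arntl, Hba-a1, Kcnab3, Pdgfra and Pon2. For Pon2, a paraoxonase that hydrolyzes lactones, the adjusted p was 0.0859 within batches 18 to 20 and 0.0577 within batches 15 and 16. The gene LOC102550225, named after its values were seen, shows the extreme case, with strain means of 4.31 to 4.42 on the one side and 5.79 to 5.98 on the other, split exactly as the batches were. It had an R2 of 0.982 over all strains, yet within batches 18 to 20 its adjusted p was 0.967 and within batches 15 and 16 it was 0.829 (limma F-test). Non-overlapping strain means between the batch sets were found for 7 of all genes (0.0336%), and LOC102550225 was the 1 of these that passed the test over strains.

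The share of the variance between strains was raised over the whole transcriptome, and a small set of genes stood out from it. For each gene R2 was computed, which is the part of the total sum of squares that lies between strains in a 1-way layout. With 16 strains and 40 animals R2 averages 0.385 for a gene without any strain difference, so that its size is read against permuted labels. The median R2 over genes was 0.473, against a mean of 0.381 (range 0.318 to 0.447) in 100 permutations of the strain labels over animals (permutation p = 0.0099, one-sided, the smallest that these permutations can give). R2 exceeded 0.5 in 41.5% of genes, against 14.9% (range 6.27% to 33.7%) after permutation (p = 0.0099, one-sided, the smallest possible). With labels permuted within sequencing batches the mean of the median R2 was 0.390 (range 0.330 to 0.472, p = 0.0099, the smallest possible) and the mean share over 0.5 was 17.1% (range 8.06% to 41.6%, permutation p = 0.0198), so that the highest permuted values reached about the observed ones. Within the 11 strains of batches 18 to 20 alone the median R2 was 0.413 and the permutation p was 0.0952.

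**Figure D1:**
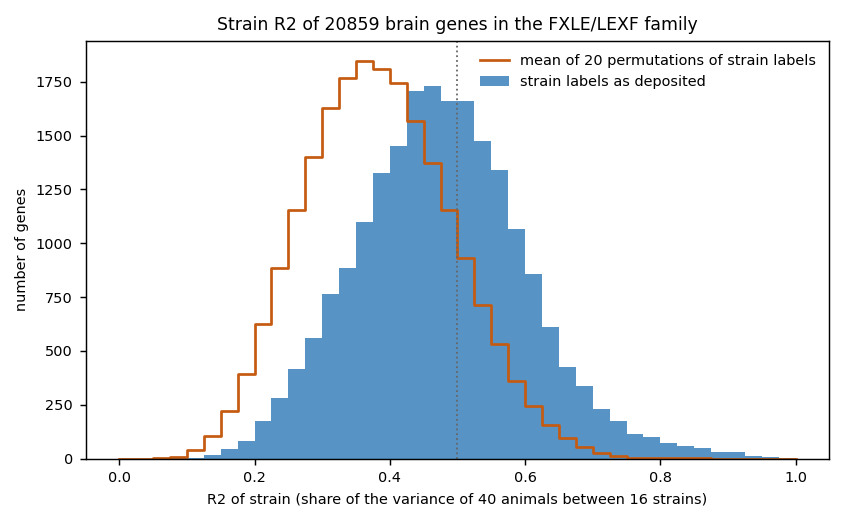
Number of genes (vertical axis) by R2 of strain (horizontal axis) in 40 animals of 16 FXLE/LEXF strains, with bars for the strain labels as deposited, a line for the mean of 20 permutations of the labels, and a dotted line at 0.5. The observed distribution is shifted to the right of the permuted one, with a tail of 264 genes over 0.8.

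A gene was called different between strains when its limma moderated F-test passed a false discovery rate (FDR) of 5%, adjusted by Benjamini and Hochberg over all genes. Of 20859 genes, 1042 (5.0%) passed. At an unadjusted p under 0.05 there were 4746 genes (22.8%). In the called genes the highest and lowest strain mean lay a median of 0.753 log2 units apart, with 10% of them under 0.464 and 10% over 1.477, against a median of 0.414 over all genes. The SD between animals of a strain was alike, with a median of 0.166 in called and 0.155 in all genes. A range over 1 unit was found for 264 called genes, and a range over 2 units for 39. R2 exceeded 0.9 in 56 genes, of which Rpl37, Rps12, Akr1b10 and Slc38a8 are described below. When genes were split into 5 classes of equal size by mean level, the share called was highest, at 8.41%, for means of 4.05 to 7.15, and lowest, at 1.92%, for means over 10.80. For means of 7.15 to 9.24 it was 7.38%. Lists are set against 5.0% below, though the share at the level of a list can be higher or lower. A fit that also held the sequencing batch called 1112 genes (5.33%), 917 of which were among the 1042. Within batches 18 to 20 there were 478 calls (2.29%), 462 of them among the 1042, and within batches 15 and 16 there were 1409 (6.75%), 475 of them among the 1042, and 221 genes were called in all of these. Without the FXLE12 animal that stood apart 1820 genes (8.73%) were called, among them 1037 of the 1042, and without the LEXF2C animal 1144 (5.48%), among them 967. Counts of list members given below without either animal are to be read against these shares.

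For a named gene the strains were split into a low and a high class at the largest gap between neighboring strain means. As genes were picked for high R2 and classes drawn from the same values, a separation follows in part from the choice. Such classes can lie close, as in Klf11, whose lower animals reached 9.55 and whose upper animals began at 9.65. Most of the 12 genes named for the highest R2 had no animal between the classes. The exception was Cemip2, a hyaluronidase, whose lower animals reached 10.17 and whose upper animals began at 10.15 (R2 = 0.925, adjusted p = 4.45e-05). Rpl37, a protein of the large ribosomal subunit, had the highest R2 of the genes named by rule (0.970, adjusted p = 5.61e-14). Its 23 animals of 9 strains lay between 6.65 and 7.63, and the 17 animals of the other 7 strains (FXLE12, FXLE18, LEXF5, LEXF6B, LEXF8A, LEXF10A and LEXF10B) between 10.25 and 12.55. The F344/Stm animals averaged 11.42 ± 0.45 (SD, n = 3), in the high class, and the LE/Stm animal stood at 6.56, in the low class. The classes cut across the batches, as 3 of the 5 strains of batches 15 and 16 were low and 2 were high, and the difference was called within each batch set (adjusted p = 5.6e-13 and 0.00026). Ribosomal protein genes have many near-identical copies in the rat genome, and reads may be split among these, so that the level of the named gene is uncertain.

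**Figure D2:**
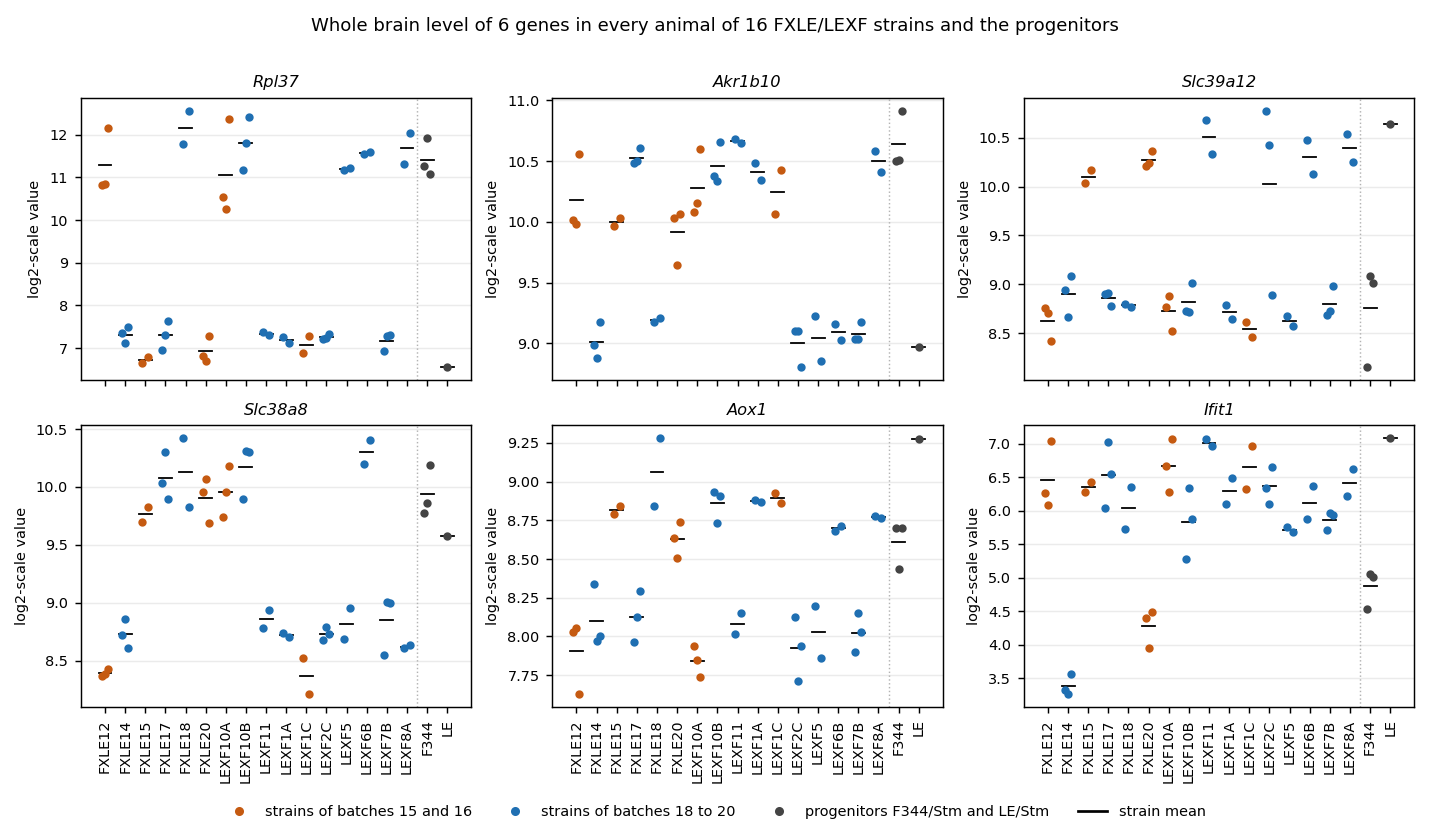
Deposited log2-scale value (vertical axes) of 6 genes in each animal (points) of 16 FXLE/LEXF strains and of F344/Stm and LE/Stm (horizontal axes), with strain means as short lines and colors for the sequencing batches. The low and high strains of Rpl37 are 3.71 log2 units apart at the nearest strain means, and 1 LEXF2C animal sits with the low strains of Slc39a12 at 8.89 while its strain mates stand at 10.42 and 10.77.

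Of 80 measured genes of the cytosolic ribosome, 7 were called (8.75%, against 5.0% of all genes), and their median R2 was 0.493 against 0.473. Rps12 of the small subunit had 9 animals of FXLE17, FXLE18, LEXF6B and LEXF8A at 8.94 to 10.14 and 31 animals of the other 12 strains at 10.86 to 11.83 (R2 = 0.969, adjusted p = 2.38e-13, and 0.232 within batches 15 and 16, whose strains were all high). F344/Stm averaged 9.58 and LE/Stm stood at 11.82, on opposite sides. Rps14 had 11 animals of FXLE15, LEXF2C, LEXF7B and LEXF10B at 10.90 to 11.47 and 29 animals at 8.50 to 10.79, and here F344/Stm (10.17) and LE/Stm (9.86) were both on the low side. Rpl30 was low in the 6 animals of LEXF7B and LEXF10B, at 9.90 to 10.54, against 10.93 to 11.92 in the other 34, while both progenitors stood high, at 11.38 and 11.40. The remaining called members were Rpl7a, Rpl8 and Rpl13. So each of these 4 genes divided the strains along a different line, and for all of them copies elsewhere in the genome leave the source of the reads uncertain. Without the FXLE12 animal that stood apart, 16 of the 80 genes were called, in a fit that called 8.73% of all genes.

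Transporters and enzymes gave further classes of strains. Slc38a8, a sodium-coupled amino acid transporter that carries glutamine, stood at 8.21 to 9.00 in 22 animals of 9 strains and at 9.69 to 10.42 in 18 animals of 7 strains (R2 = 0.958, adjusted p = 8.92e-12). Both progenitors lay nearer the high class, F344/Stm at 9.94 and LE/Stm at 9.58, so that the low level of 9 strains was seen in neither. The solute carriers as a whole counted 21 called of 342 measured (6.14%), near the share over all genes, and without the LEXF2C or the FXLE12 animal 25 and 37. Slc39a12, a zinc importer of the brain, was low in 26 animals of 10 strains, at 8.42 to 9.09, and high in FXLE15, FXLE20, LEXF2C, LEXF6B, LEXF8A and LEXF11, whose strain means were 10.03 or above. F344/Stm stood low, at 8.75, and LE/Stm high, at 10.64. Its R2 was 0.892 (adjusted p = 3.09e-07), and without the LEXF2C animal at 8.89 it was 0.974.

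Aldehyde and carbonyl metabolism was among the functions with the most strain differences, with 9 genes called of 39 measured (23.1%, against 5.0% of all genes) and a median R2 of 0.557 against 0.473. Akr1b10, an aldo-keto reductase that reduces aldehydes and retinal, was at 8.81 to 9.23 in 15 animals of FXLE14, FXLE18, LEXF2C, LEXF5, LEXF6B and LEXF7B and at 9.65 to 10.68 in 25 animals of the other 10 strains (R2 = 0.950, adjusted p = 6.95e-11). LE/Stm was low, at 8.97, and F344/Stm high, at 10.64 on average. All 5 strains of batches 15 and 16 were in the high class, where the adjusted p was 0.42, so that the call came from batches 18 to 20 (adjusted p = 1.8e-10). Cbr1, a carbonyl reductase, ran from 8.69 in FXLE14 to 9.77 in LEXF1C (adjusted p = 0.00018), and its neighbor in the family Cbr3 from 6.46 in LEXF7B to 7.37 in LEXF5 (adjusted p = 0.0016). Akr1c19, Cbr4, Aldh16a1, Aldh3b2, Akr1c13 and Akr1c15 made up the rest. In batches 18 to 20 alone 7 of the 39 genes were called, against 2.29% of all genes, and without the LEXF2C or the FXLE12 animal 8 and 11 were called. Aox1, an aldehyde oxidase named by its R2 (0.921, adjusted p = 3.13e-08), split 8 strains at 7.63 to 8.34 from 8 strains at 8.51 to 9.28, and the levels of both progenitors fell within the range of the upper class (F344/Stm 8.61, LE/Stm 9.28).

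Among 48 cytochrome P450 genes, which code for oxidizing enzymes of fatty acids, steroids and foreign compounds, 6 were called (12.5%, against 5.0% of all genes), and the median R2 of the list (0.462) was not above that of all genes (0.473). The median level of the list was 6.07, in the level class where 8.41% of genes were called. Cyp4x1, a P450 found mostly in brain, was at 7.81 to 8.24 in 15 animals of LEXF6B, LEXF7B, LEXF8A, LEXF10A, LEXF10B and LEXF11 and at 8.39 to 8.65 in 25 others (R2 = 0.946, adjusted p = 4.79e-08). Although the classes differed by little, no animal lay between them, since the SD within strains was 0.067. Cyp4v3 ran from 7.74 in FXLE12 to 10.00 in FXLE18 (adjusted p = 3.37e-07), with F344/Stm at 7.40 ± 0.54 (SD, n = 3) and LE/Stm at 10.03. Without the FXLE12 animal that stood apart FXLE12 averaged 7.98, and FXLE20 was lowest, at 7.89. Its LEXF2C animals stood at 8.53, 8.24 and 10.01, and without the last of these R2 was 0.957 rather than 0.890. The adrenal steroid enzymes Cyp11b1, Cyp11b2 and Cyp11b3 were each lowest in FXLE18 and highest in FXLE12, at 8.67 and 9.75 for Cyp11b1, 4.38 and 6.06 for Cyp11b2, and 2.91 and 4.88 for Cyp11b3. Without the FXLE12 animal that stood apart the FXLE12 means were 9.65, 5.81 and 4.59, and Cyp11b2 was then highest in LEXF10B, at 5.92. These 3 genes are close in sequence, and reads may be split among them. Of 39 genes of glutathione metabolism 4 were called (10.3%), with Gstt3, a glutathione S-transferase, at 10.98 to 11.20 in FXLE15, FXLE17 and LEXF10B (8 animals) and at 10.27 to 11.00 in the other 32, so that the animals overlapped (R2 = 0.907, adjusted p = 1.23e-06). The median level of the glutathione list was 8.8, in the level class where 7.38% of genes were called. Without the LEXF2C or the FXLE12 animal 8 and 7 P450 genes and 4 and 7 glutathione genes were called, in fits that called 5.48% and 8.73% of all genes.

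Antigen presentation held the largest share of strain differences of the function lists. The major histocompatibility complex (MHC), called RT1 in the rat, codes for class I molecules, which show peptides from inside a cell to T cells, and for class II molecules, which show peptides taken up from outside and are borne in brain mainly by microglia and macrophages. Of 46 measured genes of class I, class II and antigen processing, 21 were called (45.7%, against 5.0% of all genes), and the median R2 was 0.633. In batches 18 to 20 alone 13 were called, against 2.29% of all genes. Without the LEXF2C or the FXLE12 animal 21 and 25 were called, against 5.48% and 8.73% of all genes. Of the class I genes, RT1-CE16 had a strain mean of 8.31 to 8.63 in FXLE14, LEXF7B, LEXF10A and LEXF10B and of 8.97 to 9.71 in the other 12 strains (R2 = 0.856, adjusted p = 1.0e-05). RT1-A2 ran from 8.37 in LEXF1A to 9.68 in LEXF5 (adjusted p = 0.0262), and Tap2, which pumps peptides toward class I molecules, was likewise lowest in LEXF1A (7.15) and highest in LEXF5 (8.03, adjusted p = 0.030). The RT1 genes are a family of close and variable copies, so that reads of a strain may be assigned to a related gene and single levels are uncertain.

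The class II genes and their partner Cd74, the invariant chain that guards the class II groove until peptide is loaded, shared part of their pattern over strains. Cd74 animals lay between 7.97 and 9.55 with a median of 8.88, and FXLE14, FXLE15 and FXLE20 formed the high end, with strain means of 9.42 or above (R2 = 0.793, adjusted p = 0.000466). The strain mean was lowest in LEXF7B, at 8.14 ± 0.16 (SD, n = 3). RT1-Bb was lowest in LEXF7B (5.08) and highest in FXLE20 (6.46, adjusted p = 0.00049), RT1-Da lowest in LEXF7B (6.80) and highest in FXLE15 (7.58, adjusted p = 0.011), and RT1-Ba lowest in LEXF10B (5.87) and highest in FXLE20 (7.18, adjusted p = 0.035). Over the 16 strain means, the 4 genes correlated with each other at 0.59 to 0.76, as a description, since the means share their libraries. The strains did not keep 1 order, as FXLE14 was high in Cd74 and low in RT1-Bb (5.63), and FXLE18 was among the highest in RT1-Bb at a Cd74 mean of 8.90. Cd74 and RT1-Bb were also called within each batch set, while RT1-Ba and RT1-Da were called in batches 15 and 16 only (adjusted p of 0.34 and 0.15 in batches 18 to 20).

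**Figure D3:**
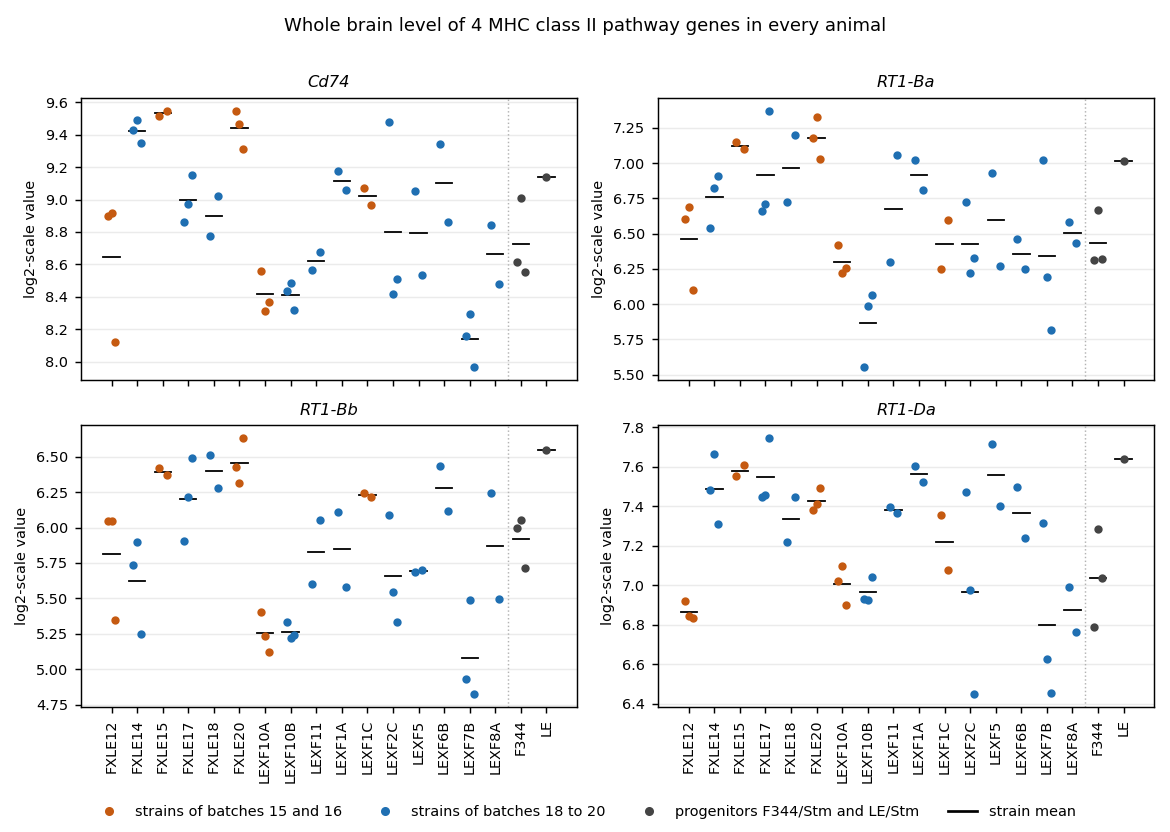
Deposited log2-scale value (vertical axes) of Cd74, RT1-Ba, RT1-Bb and RT1-Da in each animal (points) of 16 FXLE/LEXF strains and both progenitors (horizontal axes), with strain means as short lines and colors for the sequencing batches. LEXF10A, LEXF10B and LEXF7B are toward the low end in each panel, and in LEXF2C, LEXF5 and LEXF7B the animals of a strain lie far apart in several panels.

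Class II promoters carry a conserved set of boxes, of which the Y box reads CCAAT or, on the other strand, ATTGG. The RefSeq promoters of the called class II genes (assembly GRCr8, 250 bases before to 50 after the start of the gene) are shown because the strain means of these genes correlated, with each CCAAT or ATTGG in capitals.
RT1-Ba (chr20:4576807-4577106, plus strand): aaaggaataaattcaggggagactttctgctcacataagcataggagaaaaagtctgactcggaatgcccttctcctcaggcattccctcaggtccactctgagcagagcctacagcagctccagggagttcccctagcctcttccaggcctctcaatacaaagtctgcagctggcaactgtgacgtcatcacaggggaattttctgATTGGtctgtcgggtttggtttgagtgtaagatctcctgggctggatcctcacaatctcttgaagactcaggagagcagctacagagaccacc
RT1-Bb (chr20:4604069-4604368, minus strand): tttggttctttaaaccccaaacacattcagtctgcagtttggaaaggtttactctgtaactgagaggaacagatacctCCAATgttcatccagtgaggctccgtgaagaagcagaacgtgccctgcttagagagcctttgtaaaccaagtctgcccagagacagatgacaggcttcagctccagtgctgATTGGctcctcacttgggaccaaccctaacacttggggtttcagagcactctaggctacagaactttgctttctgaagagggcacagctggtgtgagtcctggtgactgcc
RT1-Da (chr20:4515165-4515464, plus strand): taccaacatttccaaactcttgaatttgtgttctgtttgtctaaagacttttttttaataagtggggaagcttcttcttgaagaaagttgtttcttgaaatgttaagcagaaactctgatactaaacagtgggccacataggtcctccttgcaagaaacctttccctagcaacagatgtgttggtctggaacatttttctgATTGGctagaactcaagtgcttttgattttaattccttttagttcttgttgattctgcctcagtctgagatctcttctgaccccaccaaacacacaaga
The pentamer was found on 1 strand or the other in the promoters of all 4 class II pathway genes, Cd74 included. It was also found in 37.5% of the 33469 promoters of the same length, so that its presence sets these genes little apart. The letters are of the reference genome and not of the FXLE/LEXF strains.

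Interferon-stimulated genes, which cells switch on against viruses, had 8 called of 37 measured (21.6%, against 5.0% of all genes) and a median R2 of 0.564 against 0.473. In batches 18 to 20 alone 7 were called, against 2.29% of all genes, and without the LEXF2C or the FXLE12 animal 8 and 10, against 5.48% and 8.73%. Ifit1, which binds foreign RNA, is named here after its values were seen, as its mean lay below the median of the table. It stood at 3.27 to 4.49 in the 6 animals of FXLE14 and FXLE20 and at 5.29 to 7.07 in the 34 animals of the other 14 strains (R2 = 0.924, adjusted p = 6.43e-09). F344/Stm averaged 4.87 ± 0.29 (SD, n = 3), between the classes, and LE/Stm stood at 7.09. Ifi27, an interferon-induced membrane protein, ran from 9.56 to 10.40 in 25 animals of 9 strains and from 10.41 to 10.98 in 15 animals of 7 strains (R2 = 0.871, adjusted p = 4.77e-06). The antiviral GTPase gene Mx2 was highest in FXLE14, at 11.12, and lowest in LEXF5, at 9.97 (adjusted p = 0.00044). FXLE14 thus had the lowest Ifit1 and the highest Mx2, Oas1b and Usp18 of the 16 strains. Over strain means, Ifit1 correlated with the other 7 called genes at -0.49 to 0.20, whereas Usp18 and Oas1a correlated at 0.82 and Oas1a and Oas1b at 0.76. The list did not move as a block.

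The interferon-stimulated response element, bound by factors of the IRF family, holds a pair of GAAA tetramers separated by 2 bases, or TTTC on the other strand. The RefSeq promoters (GRCr8) of 3 called genes are shown, with that motif in capitals on either strand and overlapping matches joined.
Ifi27 (chr6:128355062-128355361, plus strand): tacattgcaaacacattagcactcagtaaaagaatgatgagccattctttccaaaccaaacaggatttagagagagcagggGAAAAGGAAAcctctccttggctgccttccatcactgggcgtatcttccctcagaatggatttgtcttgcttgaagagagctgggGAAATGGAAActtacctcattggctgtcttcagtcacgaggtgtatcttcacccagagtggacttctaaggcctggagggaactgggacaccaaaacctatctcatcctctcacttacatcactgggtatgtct
Oas1a (chr12:41330216-41330515, plus strand): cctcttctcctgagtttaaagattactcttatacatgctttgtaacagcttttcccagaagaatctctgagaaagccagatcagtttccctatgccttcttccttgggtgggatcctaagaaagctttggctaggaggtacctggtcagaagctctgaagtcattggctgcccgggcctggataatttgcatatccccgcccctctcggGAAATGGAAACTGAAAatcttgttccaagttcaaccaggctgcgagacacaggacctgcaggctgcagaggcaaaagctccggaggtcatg
Oas1b (chr12:41395803-41396102, minus strand): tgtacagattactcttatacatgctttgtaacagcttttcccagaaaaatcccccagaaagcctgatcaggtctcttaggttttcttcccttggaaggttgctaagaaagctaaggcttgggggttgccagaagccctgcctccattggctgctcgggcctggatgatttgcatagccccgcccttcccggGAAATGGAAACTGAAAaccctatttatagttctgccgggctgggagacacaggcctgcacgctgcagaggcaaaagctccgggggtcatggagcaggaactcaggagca
Of the 8 called genes 5 were matched to a promoter, and 4 of these (Ifi27, Irf7, Oas1a and Oas1b) held the motif, against 3.92% of all 33469 promoters, while Oasl did not. The genes come from a list of interferon-stimulated genes, for which this element is named. A share above that of all promoters thus follows from the list and says nothing about strain differences. Members of the list that were not called were not searched. A match of letters is not a bound site, and of the genes that held it Ifi27, Irf7 and Oas1a were highest in LEXF11 and Oas1b in FXLE14.

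Microglial and complement genes followed. Of 16 microglial genes 5 were called (31.2%, median R2 0.619) and of 29 complement and Fc receptor genes 7 (24.1%, median R2 0.557), against 5.0% and 0.473 over all genes, with C1qa and C1qc in both lists. Itgam, the alpha chain of the complement receptor on microglia, was lowest in LEXF11, at 8.10 ± 0.10 (SD, n = 2), and highest in FXLE15, at 9.06 ± 0.003 (SD, n = 2). In each of these strains both animals came from 1 batch. Itgam was called over all strains (R2 = 0.901, adjusted p = 5.4e-07) and in both batch sets. Cx3cr1, another microglial gene, lay between 8.56 and 9.47 in the 40 animals. C1qa and C1qc, chains of the first complement component, were both lowest in LEXF5 (9.91 and 8.40), and C1qa was highest in LEXF1C (10.60) and C1qc in FXLE20 (9.30). Csf1r, the receptor that microglia need to survive, and Tmem119, a microglial surface marker, were called with an adjusted p of 0.021 and 0.022. For Tmem119 the adjusted p was 0.299 within batches 18 to 20, 0.0519 within batches 15 and 16 and 0.0573 with batch in the fit. C7, a component of the complement pore, was at 8.89 to 9.35 in 14 animals of FXLE14, LEXF2C, LEXF5, LEXF10A and LEXF10B and at 8.19 to 8.69 in 26 others (R2 = 0.930, adjusted p = 2.62e-08), with F344/Stm low (8.55) and LE/Stm high (9.41). In batches 18 to 20 alone 2 of 16 microglial and 3 of 29 complement genes were called, against 2.29% of all genes. Without the LEXF2C or the FXLE12 animal the calls were 5 and 6 microglial and 8 and 10 complement genes. Csf1r lies close to Cd74 and Rps14 on chromosome 18 in the deposited annotation. In the window of 5 Mb that holds them 8 of 33 genes were called (24.2%, against 5.0% of all genes).

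Clock genes differed between strains by small amounts. The core clock turns on activators such as Arntl and, in the opposite phase, their targets Dbp, Per1, Per3, Ciart and Nr1d2, whose RNAs rise and fall over the day. Of 23 measured clock genes 7 were called (30.4%, against 5.0% of all genes), with a median R2 of 0.608 against 0.473, while their strain means spanned a median of 0.394 log2 units against 0.414 for all genes. Arntl ran from 10.42 ± 0.07 (SD, n = 2) in LEXF8A to 10.76 ± 0.002 (SD, n = 2) in LEXF6B (R2 = 0.848, adjusted p = 0.00561, and 0.108 and 0.106 within batches 18 to 20 and within 15 and 16). Dbp ran from 10.68 in LEXF1A to 11.33 in FXLE20 (adjusted p = 0.0023), and Per1 from 10.19 in LEXF2C to 10.98 in FXLE14 (adjusted p = 0.011). The strain means of Arntl and Dbp correlated at -0.86 and those of Dbp and Ciart at 0.91 over 16 strains, so that strains high in Arntl were low in Dbp, while Arntl and Per1 correlated at -0.25. Nr1d2 correlated at 0.081 with Dbp, -0.013 with Per3 and -0.44 with Per1. In batches 18 to 20 alone 1 of the 23, Nfil3, was called (adjusted p = 0.041), in a fit that called 2.29% of all genes, and the time of day at which tissue was taken is not given in the labels. Without the LEXF2C or the FXLE12 animal 8 genes of the list were called in either case.

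The lists of neural transmission are read against 5.0% called over all genes, and in lists of 8 to 25 genes a count of 0 or 1 is near that share. The synaptic vesicle, glutamate receptor and GABA-A lists had median levels of 11.16 to 13.77. Among all genes with means over 10.80 only 1.92% were called. None of 22 synaptic vesicle genes, 18 ionotropic and 8 metabotropic glutamate receptor genes, or 18 GABA-A receptor subunits was called by the limma F-test, and at an unadjusted p under 0.05 there were 2, 4, 2 and 4. These are 9.09%, 22.2%, 25.0% and 22.2% of the lists, against 22.8% of all genes, and the median R2 was 0.453, 0.510, 0.545 and 0.519, against 0.473. In the receptors of monoamines, acetylcholine, opioids and cannabinoids 1 of 53 was called, Adra2c, an adrenergic receptor, which ran from 8.19 in LEXF10A to 8.96 in LEXF5 (adjusted p = 0.0287). Within batches 18 to 20 its adjusted p was 0.174 and within batches 15 and 16 it was 0.0697. Among neuropeptides 1 of 25 was called, Agrp, the hunger peptide of the hypothalamus, which ran from 8.00 in LEXF1C to 8.44 in LEXF5 (adjusted p = 0.017). The fit without the FXLE12 animal called 2 of the 53 receptors and 3 of the 25 neuropeptides. Potassium channels had 5 of 88 called (5.68%) and sodium and calcium channels 2 of 37 (5.41%), close to the 5.0% of all genes, and without the FXLE12 animal 9 and 1 were called. Kcnab3, a potassium channel subunit, spanned 0.379 log2 units between LEXF2C and LEXF1C (adjusted p = 0.0472), and Cacng7, a calcium channel subunit, 0.526 between LEXF10B and LEXF1C (adjusted p = 0.0470). Without the LEXF2C animal both calls were lost (adjusted p = 0.0991 and 0.0617), as they were with batch in the fit (0.0605 and 0.0999). Within batches 18 to 20 the adjusted p was 0.125 for Kcnab3 and 0.646 for Cacng7, and within batches 15 and 16 it was 0.354 and 0.0404.

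**Figure D4:**
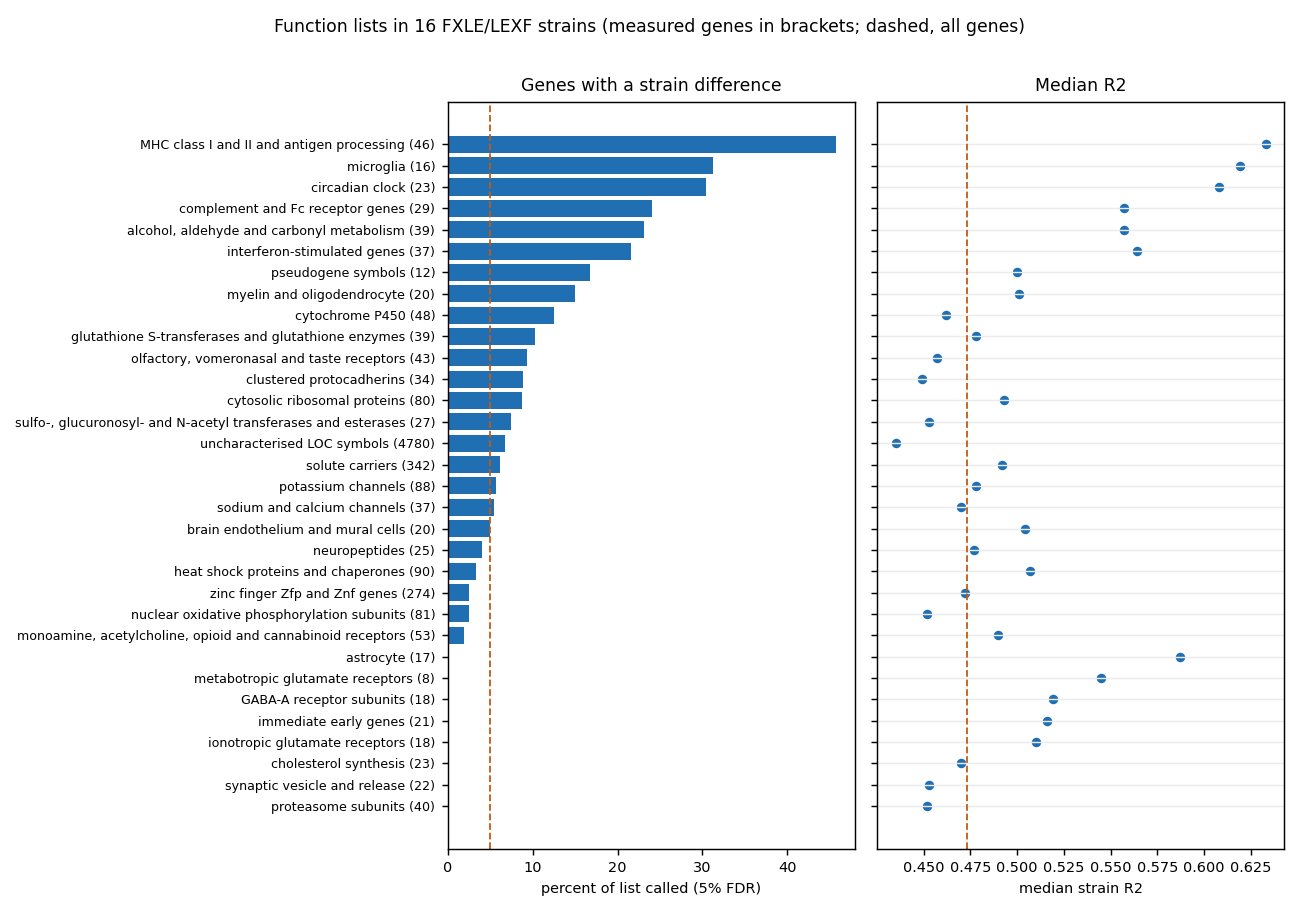
Percent of each function list that was called (left, bars) and median R2 of the list (right, points) in 16 FXLE/LEXF strains, with the number of measured genes in brackets and dashed lines for all genes. MHC, microglial and clock genes have the highest shares (45.7%, 31.2% and 30.4%), and 8 lists at the foot have no called gene.

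No gene was called among 40 proteasome subunits and 23 genes of cholesterol synthesis against 5.0% of all genes, and 5 and 4 of them (12.5% and 17.4%) had an unadjusted p under 0.05, against 22.8% of all genes (limma F-test). The median levels of these lists were 11.14 and 10.83, and that of the nuclear oxidative phosphorylation genes was 11.45. Of all genes with means over 10.80 only 1.92% were called, so that such counts are near the share at their level. Of 81 nuclear subunits of oxidative phosphorylation 2 were called (2.47%), Ndufa13 of complex I and Cycs, cytochrome c, which has many copies in the genome. For Ndufa13 the adjusted p was 0.593 within batches 18 to 20 and 0.0521 within batches 15 and 16. Cycs stood at 11.95 to 12.41 in 8 strains and at 12.50 to 13.13 in the other 8 (adjusted p = 0.000247). Heat shock proteins and chaperones had 3 of 90 called (3.33%) and a median R2 of 0.507, with Hspa2 highest in LEXF5, at 9.24, and zinc finger genes with a Zfp or Znf symbol 7 of 274 (2.55%). Without the FXLE12 animal that stood apart, 7 genes of oxidative phosphorylation, 7 chaperones and 17 zinc finger genes were called, in a fit that called 8.73% of all genes. Immediate early genes, which neurons switch on within minutes of activity, had 0 of 21 called and 9 (42.9%) at an unadjusted p under 0.05 (limma), against 5.0% and 22.8% of all genes. The same test called 18 of them in the HXB/BXH family, where it called 19.1% of all genes, with 88 animals in 30 strains. The families also differ in sequencing batches and in the storage of the tissue, and the cause of the difference was not tested. Without either animal that stood apart 2 of the 21 were called.

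Genes of other brain cell types are read against 5.0% called, 22.8% at an unadjusted p under 0.05 and a median R2 of 0.473 over all genes. Astrocyte genes had 0 of 17 called, although 9 (52.9%) had an unadjusted p under 0.05 (limma) and the median R2 was 0.587. Their median level was 14.12, and of all genes with means over 10.80 only 1.92% were called. Of 20 myelin and oligodendrocyte genes 3 were called (15.0%), Pdgfra of the precursor cells, Opalin and Fa2h, with Pdgfra and Opalin lowest in FXLE20, at 11.54 and 11.58, and none of the 20 was called in batches 18 to 20 alone. Within batches 15 and 16 the adjusted p was 0.0754 for Pdgfra and 0.125 for Opalin. In brain endothelium and mural cells 1 of 20 was called, which is the share of all genes. It was Abcc9, a channel subunit of pericytes, lowest in LEXF5 (8.71) and highest in FXLE17 (9.30, adjusted p = 0.0011). Clustered protocadherins, which give neurons their surface identity, had 3 of 34 called (8.82%), with Pcdhga2 from 9.96 in LEXF10A to 10.60 in LEXF5 (adjusted p = 0.000676).

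Markers of tissue that a whole brain can carry along were also measured. Blood genes had 3 of 9 called (33.3%, against 5.0% of all genes), all hemoglobin alpha copies. At an unadjusted p under 0.05 there were 7 of the 9 (77.8%), against 22.8% of all genes (limma). The mean of the 9 genes ran from 9.34 in LEXF5 to 10.34 in FXLE18. Hba-a3 ran from 5.91 in LEXF10B to 8.61 in FXLE18 (R2 = 0.926, adjusted p = 5.51e-09) and was called within both batch sets (adjusted p = 1.13e-06 in batches 18 to 20 and 0.0016 in 15 and 16). Hba-a1 stood at 12.71 to 14.26 over the animals and was lowest in LEXF1A (12.89) and highest in FXLE15 (14.11, adjusted p = 0.0331). These strains belong to different batch sets, and within the sets the adjusted p was 0.123 (batches 18 to 20) and 0.0809 (batches 15 and 16). Without the LEXF2C animal 5 of the 9 blood genes were called, and without the FXLE12 animal 3. The hemoglobin alpha genes are near-identical copies, and their split is uncertain. Hemoglobin RNA comes mainly from blood left in the vessels, and its part in the differences of immune genes was not tested. Of 8 striatal markers none was called, but 7 (87.5%) had an unadjusted p under 0.05 (limma), against 22.8% of all genes. Their median R2 was 0.583, against 0.473 over all genes. Liver (12 genes), pituitary (4), cerebellum (8), hindbrain (10) and neuron markers (8) had no called gene and none at an unadjusted p under 0.05. Choroid plexus, olfactory bulb and sex-linked markers had no called gene either. At an unadjusted p under 0.05 they had 3 of 10, 1 of 8 and 1 of 5. Of 10 meningeal genes 1 was called, Igf2, lowest in LEXF10A (11.74) and highest in LEXF1C (12.39, adjusted p = 0.0375). For Igf2 the adjusted p (limma) was 0.492 within batches 18 to 20 and 0.0178 within batches 15 and 16, which hold both of these strains. The fit without the FXLE12 animal called 3 meningeal and 2 striatal markers. The mean of 8 striatal markers ran from 10.70 in LEXF8A to 11.16 in LEXF11.

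The 8 genes named for the smallest spread of strain means spanned 0.0888 to 0.115 log2 units between the lowest and the highest strain. Sar1a, which starts vesicle budding from the endoplasmic reticulum, had strain means of 11.58 to 11.68 with an SD of 0.026, the smallest of the genes named by rule. Ykt6, a SNARE protein of membrane fusion, and Rab3c, a vesicle GTPase, had SDs of strain means of 0.030. Acaca, the first enzyme of fatty acid synthesis, ran from 12.57 in LEXF5 to 12.67 in LEXF10A. Apbb2, Unc80, Saraf and Apob completed the set, and the SD within strains of the 8 genes was 0.045 to 0.080. For Apob, a liver protein, the 16 strain means were 8.65 to 8.76, beside the 19.80 of the LE/Stm animal.

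A further 8 genes were named for a large SD within strains and an R2 below the permuted median, so that their high adjusted p values follow from the choice and are no result. Gabra6, the GABA-A subunit of cerebellar granule cells, lay between 10.11 and 12.16 over the animals, with an SD within strains of 0.483. Ppp1r17, a phosphatase inhibitor of Purkinje cells, ran from 8.02 to 10.02. Slc6a5, the glycine transporter of hindbrain and cord, ran from 8.49 to 10.56, and Pmch, a peptide precursor of the lateral hypothalamus, from 8.75 to 10.56. Each of these RNAs belongs to a limited region of the brain. Cpne1, Cnpy1, Arhgef33 and Crtam were the other members, with SDs within strains of 0.42 to 0.52. The mean of 8 cerebellar markers spread over the animals from 9.90 to 11.40, and none of the 8 was called or had an unadjusted p under 0.05 (limma). Within batches 15 and 16, however, 5 of the 8 were called, in a fit that called 6.75% of all genes.

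Several named genes set 1 or a few strains apart. Tuba1c, an alpha tubulin, was at 10.64 and 11.27 in the animals of LEXF1C and at most at 9.62 in the other 38 (R2 = 0.969, adjusted p = 2.5e-13), with LE/Stm at 10.11, and tubulin genes too have close copies. Klf11, a transcription repressor, stood at 9.65 to 9.95 in the 5 animals of FXLE14 and LEXF1A and at most at 9.55 in the other 35 (R2 = 0.944). Tmc5, a membrane channel-like protein, was low in the 12 animals of LEXF2C, LEXF7B, LEXF10A and LEXF10B, at 7.79 to 8.46, and at 8.59 to 9.75 in the other 28 (R2 = 0.963). Adgrg6, an adhesion receptor, divided 9 strains at 8.06 to 8.85 from 7 strains at 8.96 to 9.69 (R2 = 0.921). For Adgrg6, F344/Stm averaged 9.20 ± 0.15 (SD, n = 3) and LE/Stm stood at 8.74. For Klf11, F344/Stm averaged 9.22 ± 0.55 (SD, n = 3), a spread wider than its distance from LE/Stm at 8.93.

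The position of the strain classes relative to the progenitors was then described over all called genes. In 26 of them neighboring strain means were more than 1 log2 unit apart. Of these, 14 had at least 4 strains on each side of the gap, and in 11 of the 14 the progenitors lay on opposite sides, as in Rpl37. The 14 include LOC102550225, whose classes were the batch sets and whose progenitors lay on the same side. In 6 genes the gap set 1 strain apart, and the progenitors lay on opposite sides in 0 of the 6. The LE/Stm side rests on 1 animal throughout, and both progenitors were sequenced in a batch without family animals.

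Called genes that lie close together had more alike strain means. For 649 called genes with a position in the deposited annotation, the squared correlation of strain means averaged 0.331 over 437 pairs with starts less than 1 Mb apart. It averaged 0.222 at 1 to 5 Mb, 0.187 at 5 to 10 Mb, 0.139 at 10 to 20 Mb and 0.117 at 20 to 40 Mb, and 0.103 over pairs on different chromosomes. Overlapping or duplicated genes may share reads, and their part in the nearest class was not tested. The first 5 Mb of chromosome 20, which hold the MHC, had 16 of 98 genes called (16.3%, against 5.0% of all genes). Over the autosomes and X the share ran from 1.35% on X (7 of 518) to 8.08% on 20, and none of 7 genes on Y was called.

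**Figure D5:**
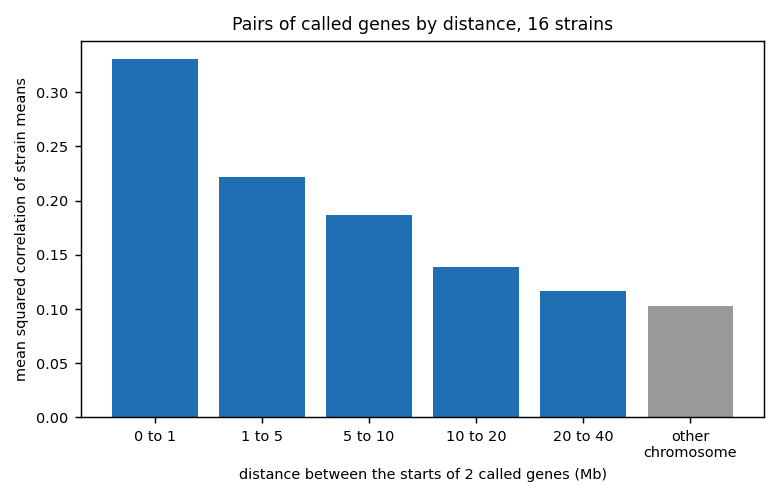
Mean squared correlation of strain means over 16 FXLE/LEXF strains (vertical axis) for pairs of called genes by the distance between their starts in Mb (horizontal axis, blue), with pairs on different chromosomes in gray. The mean is 0.331 within 1 Mb and 0.117 at 20 to 40 Mb, against 0.103 on different chromosomes.

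The strains were also compared as wholes over the 1042 called genes. Of 120 pairs of strains, LEXF2C and LEXF7B had the most alike profiles (r = 0.486), followed by LEXF10A and LEXF10B (r = 0.419) and LEXF1A and LEXF1C (r = 0.350), and each of the last 2 pairs spans both batch sets. LEXF10A and LEXF1C were the least alike (r = -0.555). Without the LEXF2C animal that stood apart LEXF2C and LEXF7B correlated at 0.431, and the order of these pairs was the same. LEXF1C was the highest or the lowest strain for 214 of the genes, the most of any strain, and FXLE12 for 44, the fewest, or for 47 without its animal that stood apart. As a check with genes chosen in other animals, each family animal was matched to the strain whose other animals it resembled most over 3992 genes called in HXB/BXH, and 37 of 40 were nearest to their own strain, the LEXF2C animal that stood apart among them. The other animal that stood apart, of FXLE12, was nearest to LEXF10A (r = 0.358, against -0.0152 to its own strain), and the remaining exceptions were 1 more FXLE12 animal and 1 FXLE17 animal, both nearest to FXLE15.

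The genes that differed between FXLE/LEXF strains were in part those that differed elsewhere in the panel. By the same limma test 3992 genes (19.1%) were called in the HXB/BXH family, with 88 animals of 30 strains, and 4236 (20.3%) in the classic inbred strains, with 64 animals of 23 strains. With batch in the fit the counts were 6694 (32.1%) and 3711 (17.8%), which turns the order around, and in the classic inbred strains only 18 of 22 strain terms could then be fitted. Of the 1042 FXLE/LEXF genes, 512 (49.1%) were called in HXB/BXH, which is 12.8% of that list, and 651 (62.5%) in the classic inbred strains, which is 15.4% of that list. Among genes not called in FXLE/LEXF the shares were 17.6% and 18.1%. With batch in the fit of the other strains the shares were 61.3% and 59.6% of the 1042 genes, and 30.6% and 15.6% of the genes not called. Rpl37, Akr1b10 and Aox1 were called in HXB/BXH as well (adjusted p = 5.9e-19, 8.3e-29 and 3.9e-22), whereas Cyp4x1, Slc38a8, C7 and Tuba1c had adjusted p values of 0.63, 0.22, 0.15 and 0.86 there. The families differ in the number of animals and strains, and they shared no sequencing batch. The study's methods for the earlier version give storage in liquid nitrogen for the HXB/BXH brains, whereas the FXLE/LEXF tissue was frozen in RNAlater. The difference between the effects in the families, and what these differences contribute to it, was not tested.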

How the data were processed

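The authors deposited a table of RefSeq genes with values scaled across libraries, on a log2 scale as read from the values. The labels name cutadapt 1.9.1, Bowtie2, HISAT2, StringTie, RSEM, DESeq2 and the rn6 (Rnor_6.0) genome without role or order. For an earlier version with fewer strains, the study's methods describe trimming, removal of ribosomal reads, HISAT2 alignment to rn6 genomes carrying each strain's SNPs, RSEM quantitation, removal of outlying samples, adjustment of counts by 1 factor of unwanted variation and a regularized log transformation. Whether the version used here was made in this way is not given in the sources used here. Such an adjustment could change differences between batches, and thus between strains. Repeat libraries, those that share a strain and a replicate number, were averaged and counted as 1 animal. Strains were compared with the moderated F-test of limma 3.58.1 in R 4.3.3 over all 20859 genes (Benjamini-Hochberg, 5% FDR), and R2 with 100 permutations of strain labels (20 for the alternatives), tested on simulated data. The 2 animals that stood apart were noticed, and left out in turn, after the data were seen. Where no source says more, animals of a strain may share a litter or cage.

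Named genes had a symbol that is no clone, LOC or RGD number or pseudogene, and a mean above the table median: the 12 called genes with the highest R2, the 8 others with the largest range of strain means, the 8 with the smallest SD of strain means, the 8 with the largest SD within strains and R2 below the permuted median, and the called gene of highest R2 in each list. Others that are named are called or measured members of a list. Members and lists were chosen with earlier results of these data known. A list of microRNA and small nucleolar RNA genes had no measured member. The lists that follow are read against 5.0% of all genes called. Of 27 transferases and esterases 2 were called (7.41%, Pon2 and Ephx2) and of 43 chemosensory receptors 4 (9.3%). Of 12 pseudogene symbols 2 were called (16.7%) and of 4780 LOC symbols 323 (6.76%). Same-numbered animals of different strains did not deviate together (mean correlation -0.00217), so the numbers were not treated as pairs.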

Additional observations from a re-analysis of the deposited data

How the results depend on the processing

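With 2 or 3 animals a strain, the count of 1042 genes was 478 in batches 18 to 20 alone, 426 of the 10429 genes above the table median (fewer genes tested), 525 in the strains with 3 animals, 1820 without the FXLE12 animal labelled replicate 3, and 99 to 1781 without replicate 1, 2 or 3, where strains with 2 animals drop out. It stayed within 1.5 times of 1042 under batch as a covariate (1112), batches 15 and 16 alone (1409), without LEXF10B (851), and without each strain in turn (749 without LEXF10A to 1395 without FXLE12). The table of reconstructed genes gave 1499 calls of 84239, or 1.78% against 5.0%. A replicate block gave 897 calls. Of 24 fits without 1 animal, the lowest count was 817. The median R2 was 0.413 in batches 18 to 20 (permutation p = 0.0952), 0.358 in strains with 3 animals (p = 0.0952), and 0.495 to 0.613 without 1 replicate (p up to 0.333, with means of the permuted median of 0.468 to 0.479). The percent of genes with R2 over 0.5 was 27.4 in batches 18 to 20, against a mean of 19.4 after permutation (p = 0.0952). Without 1 replicate it was 48.9 to 75.8, against means of 42.8 to 43.9 after permutation (permutation p up to 0.333). The smallest p of 20 permutations is 0.0476. In HXB/BXH the count was 6694 with batch as a covariate and 1535 above the table median, and in the classic inbred strains 1370 above the table median. The cause of the other changes was not tested. Of 36 called named genes, 34 stayed called with batch as a covariate, 27 in batches 18 to 20, 23 in batches 15 and 16, 33 under the replicate block, 33 without the LEXF2C animal (Cacng7, Kcnab3 and Hist2h4 were lost) and 36 without the FXLE12 animal, and 18, 14 and 31 without replicate 1, 2 and 3. All 16 uncalled named genes stayed uncalled in each of these. As they were chosen in the same animals for small SDs of strain means or low R2, this follows largely from the choice.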

Other observations

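The 3 strains with 1 animal each, FXLE13, LEXF2B and LEXF9, entered no comparison, and their values are given beside the strain classes. At Rpl37 the FXLE13 and LEXF2B animals stood at 11.45 and 11.71, with the high strains, and the LEXF9 animal at 7.14, with the low strains. At Akr1b10 all 3 were with the high strains, at 10.22, 10.36 and 10.52. At Ifit1 the FXLE13 and LEXF2B animals stood at 3.88 and 3.36, with the low strains FXLE14 and FXLE20, and the LEXF9 animal at 6.22. Acsm3, which codes for an acyl-CoA synthetase of medium-chain fatty acids and was named after its values were seen, was at 4.24 to 5.24 in 15 animals of 6 strains and at 5.68 to 7.56 in 25 animals of 10 strains, and the 3 animals stood at 6.53, 6.44 and 6.45, with F344/Stm at 5.09 and LE/Stm at 7.32. At Slc39a12 the LEXF2B and LEXF9 animals were high, at 10.26 and 10.35, and the FXLE13 animal, at 9.04, was between the strain means of the classes.

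Fcrl2, an Fc receptor-like gene that was named after its values were seen, separated 22 animals of 9 strains at 6.06 to 7.20 from 17 of 18 animals of 7 strains. The remaining animal was the LEXF2C animal that stood apart, at 7.03 beside 9.02 and 8.67 in its strain mates. At Enpp6 the same 3 animals stood at 9.39, 10.44 and 10.19, while at Rpl37 they stood at 7.34, 7.22 and 7.24.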
